A study of Rattus norvegicus with 24 samples.

Results

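In a rat infarct series, 54 of 32883 gene IDs were close to silent in the ventricle of Sham hearts and transcribed in infarcted tissue. They were chosen by read counts alone: a summed raw count of at most 3 over the 6 Sham libraries, and a mean of at least 1 CPM (the count divided by the library's total and multiplied by 1e6) over the 6 libraries of the MI group. RNA was sequenced from left ventricle of Sprague Dawley rats, 24 libraries in 4 groups of 6. Per the labels, the infarct region was taken at day 7. The groups were Sham, the control group of the study; MI, myocardial infarction without a patch; Sutured patch, infarction with a patch held by sutures; and Microneedle patch, infarction with a patch that anchors itself by microneedles. The labels do not give the patch material, the part of the ventricle taken from Sham hearts, the age of the rats, or whether the libraries of a group are from different rats. The p-values thus rest on library-to-library spread, which may be technical. The table carries Ensembl IDs without symbols, and 0 of the 54 IDs could be paired with a name, so members are numbered from 1 (highest mean CPM in MI) to 54 (lowest), and 4 IDs are given in full. For the same reason the labelled tissue could not be checked against marker genes.

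After an infarct, dead muscle is cleared by phagocytes and replaced by granulation tissue, in which fibroblasts turn into contractile, matrix-producing cells, vessels grow in and blood-borne leukocytes pass through. Genes used by such cells, and by few or no cells of healthy ventricle, can go from near absence to measurable levels. In bulk tissue a larger number of such cells and more RNA per cell cannot be told apart.

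Total counts ranged from 5443782 to 11757562 in Sham and from 12574300 to 14552623 in the 18 libraries with an infarct, so every Sham library was the shallower. No 2 libraries of a group agreed within sampling noise (lowest chi-square per degree of freedom 14.97 over 60 pairs).

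The 54 genes together had 56 counts among the 57476691 counts of the 6 Sham libraries. In Sham, 25 members had no count, 10 had 1, 11 had 2 and 8 had 3. The counts were unevenly spread: Sham replicate 6 held 18, replicate 2 held 15, replicate 1 held 13, replicate 3 held 9, replicate 5 held 1 and replicate 4 held 0, although replicate 4 was among the deeper Sham libraries with 10753596 counts.

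At their MI levels the members would have given between 57.9 and 1323 counts each over the combined Sham depth, with a median of 88.8. For the 25 members without a Sham count, a floor of 3 counts over the group corresponds to 0.0522 CPM, and their MI means lay at least 19.3-fold to at least 441-fold above it. For the 29 members with 1 to 3 Sham counts, the ratio of the pooled CPM ran from 20.6 to 314. These sizes, and the expected counts, follow from how the genes were chosen and carry no test, and floors and intervals cover counting error only.

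In MI tissue most members were weakly expressed. The mean was between 1 and 2 CPM for 37 members, between 2 and 5 CPM for 13, between 5 and 10 CPM for 2 and above 10 CPM for 2. All 54 had at least 1 count in every MI library, and 16 of them reached 1 CPM in all 6.

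**Figure D1:**
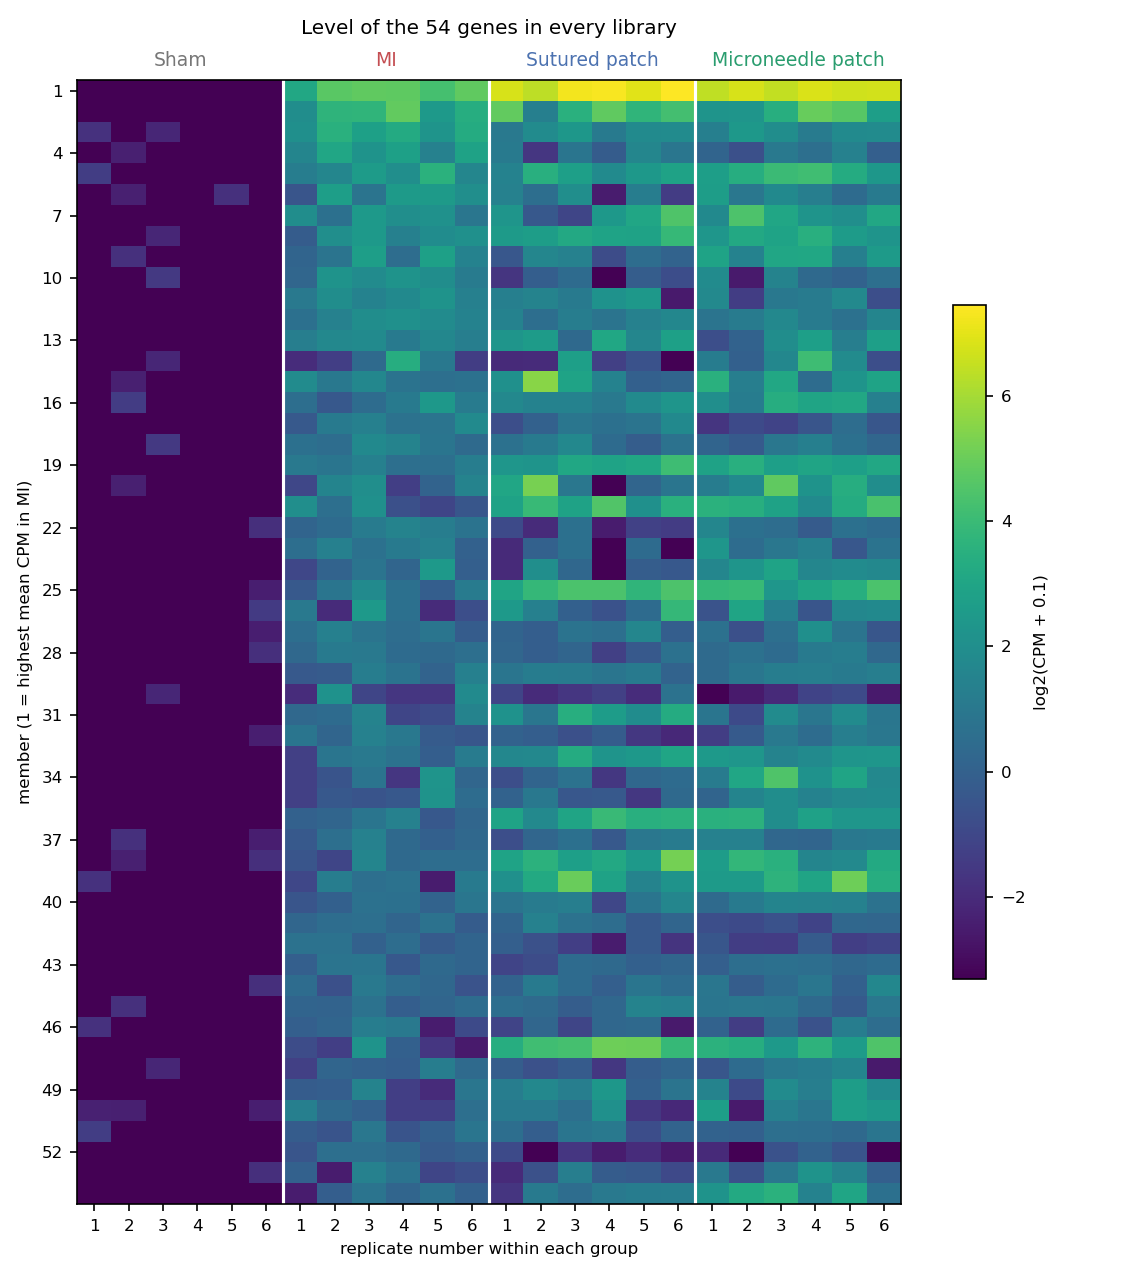
Level of each of the 54 genes (rows, ordered by mean CPM in MI) in each of the 24 libraries (columns, replicates 1 to 6 of each group), as log2(CPM + 0.1). Sham columns are dark almost throughout, with 56 counts in all, while member 1 is brightest in the libraries with a patch, at 84.5 to 176 CPM with sutures and 86.0 to 115 CPM with microneedles.

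Member 1, ENSRNOG00000007866, was the most abundant of the group in MI and had 0 counts in all 6 Sham libraries. In MI it ran from 8.71 to 28.4 CPM with a median of 26.8, and MI replicate 1 was the low library. Its mean of 23.0 ± 7.79 CPM (SD, n = 6) lay at least 441-fold above the Sham floor. Member 2 also had 0 Sham counts and averaged 12.5 ± 9.04 CPM in MI. It was uneven there, from 3.81 to 29.2 CPM with a median of 11.7.

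The 2 members next in level varied less than member 2. Member 3 ran from 4.04 to 11.3 CPM in MI with a median of 8.29, against 3 counts in Sham, a ratio of 149 (95% exact interval 50.7 to 723). Member 4, ENSRNOG00000057724, ran from 2.56 to 8.33 CPM with a median of 5.70, against 1 count in Sham, a ratio of 314 (95% exact interval 56.0 to 12414).

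The lower limit of 1 CPM fell inside a continuous range of levels. Members 52, 53 and 54 stood at 1.06, 1.02 and 1.01 CPM in MI, and the 3 nearest genes left out by that limit stood at 0.972, 0.965 and 0.945 CPM. The limit on Sham counts was crossed by 12 genes with exactly 4 Sham counts and at least 1 CPM in MI. One of these averaged 363 CPM in MI, above every member, and a single count kept it out.

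Libraries of the MI group did not carry the members evenly. MI replicate 3 had 49 of the 54 at 1 CPM or more and MI replicate 1 had 28, with 38, 41, 33 and 40 in replicates 2, 4, 5 and 6. MI replicate 3 held the highest value of 24 members, where an even spread would give 9 to each library, and MI replicate 5 that of 10. The rule used these libraries, and a limit on the mean favours genes lifted by a single high library. How often MI replicate 3 was the highest over all genes was not counted. For 6 members a single MI library held more than 50% of the MI signal, at the most 73.1% for member 14, which stood at 10.4 CPM in MI replicate 4 and between 0.155 and 1.88 CPM in the rest. The same held for member 47 (70.2%) and member 26 (56.9%) in MI replicate 3, and for members 35 (56.0%), 34 (54.6%) and 24 (53.3%) in MI replicate 5. Without MI replicate 3, 44 genes met the rule, all of them among the 54. The coefficient of variation over MI libraries had a median of 51.6%, against a median of 22.04% from counting alone, and it exceeded the counting value by more than 2 times for 39 members.

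Both patch groups carried the genes as well. With the sutured patch 40 members and with the microneedle patch 49 members averaged at least 1 CPM, libraries that had no part in the choice. The 54 genes summed to 0.906 ± 0.650 CPM in Sham (SD, n = 6), 140 ± 35.2 CPM in MI, 354 ± 63.3 CPM with the sutured patch and 326 ± 27.8 CPM with the microneedle patch. MI libraries lay between 77.3 and 180 CPM and patch libraries between 273 and 447 CPM, so MI did not overlap either patch group. Member 1 made up 16.1% of the sum in MI, 38.3% with the sutured and 31.2% with the microneedle patch. Without it the sums were 117 ± 28.4, 218 ± 40.9 and 225 ± 26.2 CPM (SD, n = 6 each), again without overlap between MI (at most 152 CPM) and the patch groups (at least 162 CPM). The number of members at 1 CPM or more was 38.2 ± 7.19 per library in MI, 36.3 ± 4.13 with the sutured and 43.7 ± 5.32 with the microneedle patch, and these ranges overlapped. The members did not all move with the sums. By mean CPM, 28 were above and 26 below MI with the sutured patch, and 40 above and 14 below with the microneedle patch. The summed levels and these counts are descriptions, with no test over the members.

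**Figure D2:**
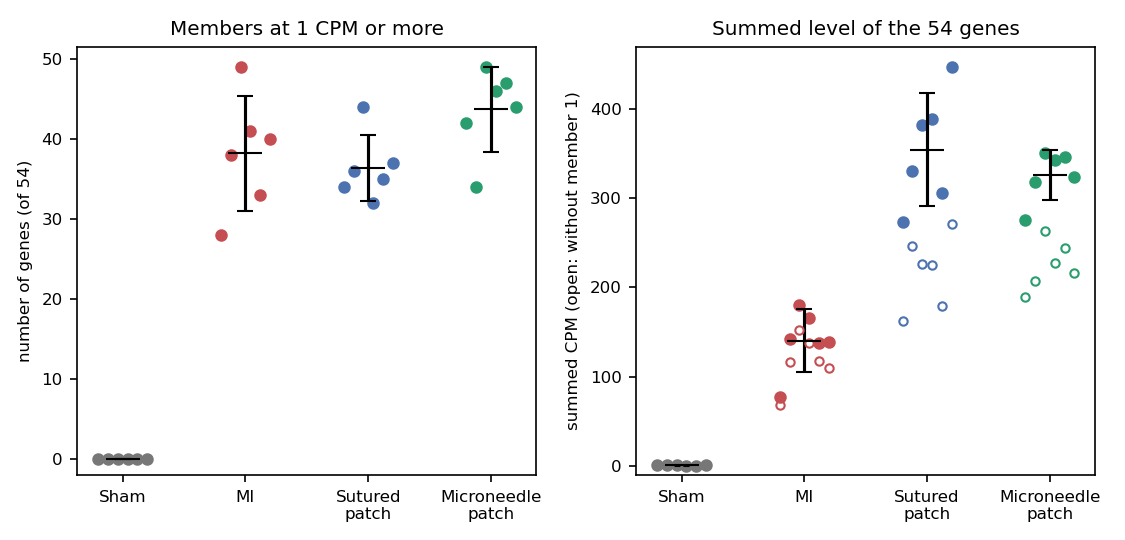
Left, number of the 54 genes at 1 CPM or more in each library (points) with the mean and SD of 6 libraries per group; right, summed CPM of the 54 genes, filled with and open without member 1. Summed levels of MI libraries (77.3 to 180 CPM) lie below those of all patch libraries (273 to 447 CPM), while the numbers of genes at 1 CPM or more overlap.

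The first comparison set the microneedle patch against the sutured patch, which the labels do not show to differ in fixation alone. Neither of its groups had served to choose them, but the Sham and MI libraries that had done so entered the fit and its estimate of the spread. None of the 53 members that passed the filter on low counts was called between the microneedle and the sutured patch in either direction by edgeR's quasi-likelihood test (adjusted p below 0.05). Over all 14540 genes tested, 0.144% were called higher and 0.172% lower with the microneedle patch. At an unadjusted p below 0.05 there were 12 members, 9 higher and 3 lower (22.6% of 53, against 13.7% of all genes). DESeq2 called 4 members, limma-voom (with quality weights, here and below) 7 and edgeR without Sham replicates 4 and 5 called 2, each of them higher with the microneedle patch. Calls over all genes also grew in these fits, to 1.27% higher and 1.62% lower with DESeq2, 3.43% and 2.08% with limma-voom, and 1.82% and 1.66% without Sham replicates 4 and 5. The median log2 fold change was 0.23 over the members and -0.01 over all genes, and 35 of 53 members were positive, where 48.9% of all genes were. Member 30, which was high in MI replicates 2 and 6 (4.35 and 3.51 CPM) and at or below 1.59 CPM in all other libraries, did not pass the filter and was not tested.

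Among the tested members, member 34 showed the smallest p of this comparison and was the 1 member whose libraries did not overlap. It ran from 2.16 to 22.1 CPM with the microneedle patch (median 6.10) and from 0.236 to 1.56 CPM with the sutured patch (median 1.06). All 6 microneedle libraries were above all 6 sutured ones, as was the case for 0.722% of all genes; the reverse order held for 1.06% of all genes and for 0 members. The fitted log2 fold change was 3.14 (SE 0.71, adjusted p = 0.0621 in edgeR). The adjusted p fell below 0.05 without MI replicate 5 (0.0409), sutured patch replicate 6 (0.0459), Sham replicate 1 (0.0451) or Sham replicate 5 (0.0342), none of which belongs to the microneedle group. In the other leave-one-out fits it missed the threshold, with values up to 0.155. It was 0.000916 in DESeq2, 0.0200 in limma-voom, 0.0484 with the compared groups alone, 0.0175 with the replicate block and 0.0287 without Sham replicates 4 and 5, within a range of 0.000916 to 0.946 over 9 alternatives. In MI, replicate 5 stood at 4.66 CPM and the other libraries between 0.224 and 1.66 CPM.

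Next in order came members 9, 54 and 22, all higher with microneedles but not past the threshold in edgeR with all libraries. Member 9 ran from 2.43 to 8.38 CPM with the microneedle patch (median 6.66) and from 0.473 to 2.995 CPM with the sutured patch (median 1.16), with a log2 fold change of 2.01 (SE 0.56, adjusted p = 0.0908 in edgeR). Member 54 ran from 1.496 to 11.7 CPM against 0.218 to 2.29 CPM, a log2 fold change of 1.98 (SE 0.58, adjusted p = 0.121 in edgeR). Member 22 ran from 0.756 to 2.95 CPM against 0.0788 to 1.48 CPM, a log2 fold change of 1.81 (SE 0.56, adjusted p = 0.132 in edgeR), and its adjusted p was 0.0385 without sutured patch replicate 3. With DESeq2 and limma-voom the adjusted p was 0.0173 and 0.0140 for member 9, 0.0251 and 0.0457 for member 54, and 0.0444 and 0.0242 for member 22. Without Sham replicates 4 and 5 it was 0.0474 for member 9 in edgeR. In the remaining alternatives none of the 3 passed. Over the 24 leave-one-out fits the adjusted p in edgeR ran up to 0.212 for member 9, 0.250 for member 54 and 0.310 for member 22. In each of these 3 members the ranges of the patch groups overlapped. For member 54 the sutured median of 2.02 CPM lay above the lowest microneedle library.

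Among members at high levels with a patch, the difference between the patches varied, and none passed the threshold. Member 1 averaged 101 ± 12.1 CPM with the microneedle and 136 ± 34.9 CPM with the sutured patch (SD, n = 6 each), a log2 fold change of -0.34 (SE 0.23, adjusted p = 0.551 in edgeR). Member 19 averaged 8.07 ± 1.73 and 8.53 ± 4.52 CPM, a log2 fold change of 0.01 (SE 0.30, adjusted p = 0.990 in edgeR). Member 47 averaged 11.4 ± 6.22 and 21.4 ± 9.62 CPM, a log2 fold change of -0.80 (SE 0.59, adjusted p = 0.592 in edgeR). Member 38 averaged 7.79 ± 4.48 and 12.97 ± 12.1 CPM, a log2 fold change of -0.63 (SE 0.50, adjusted p = 0.627 in edgeR). A p that misses the threshold does not show that the patches act alike on these genes.

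Each patch was then set beside MI. The MI libraries had served to choose the members through the minimum of 1 CPM, which favours genes that happened to be high there and hence favours lower values in a patch group. Both comparisons also share the MI libraries, so each is given with its own values.

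With the sutured patch, 11 members rose and 4 fell against MI. Over all genes, 2.87% were called higher and 1.67% lower. The median log2 fold change of the members was 0.15, that of all genes -0.00, and 28 of the 53 tested members were positive, where 49.9% of all genes were. In 10 members every sutured library lay above every MI library, an order seen in 7.01% of all genes, and in 1 (member 52) every sutured library lay below, as in 2.39% of all genes.

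With the microneedle patch, 13 members rose and 3 fell against MI. Over all genes, 7.12% were called higher and 7.41% lower. The median log2 fold change of the members was 0.58, that of all genes 0.02, and 40 of 53 were positive, where 51.8% of all genes were. In 8 members every microneedle library lay above every MI library, an order seen in 6.74% of all genes, and in 0 members below, as in 7.93% of all genes.

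Member 1, ENSRNOG00000007866, had the smallest p among the members in both comparisons. It rose from the 8.71 to 28.4 CPM of MI (median 26.8) to between 84.5 and 176 CPM with the sutured patch (median 141). With the microneedle patch it ran from 86.0 to 115 CPM (median 104). The lowest patch library was about 3 times the highest MI library. The log2 fold change against MI was 2.502 (SE 0.25, adjusted p = 1.62e-05 in edgeR) for the sutured and 2.16 (SE 0.24, adjusted p = 8.62e-05 in edgeR) for the microneedle patch, a ratio of means of 5.91 and 4.40.

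Member 25, ENSRNOG00000000017, was the second by p among the members in both comparisons. It had 1 count in Sham and ran from 0.700 to 3.48 CPM in MI (median 1.61). The sutured patch libraries lay between 7.76 and 21.96 CPM (median 17.8) and the microneedle libraries between 5.01 and 20.8 CPM (median 12.7), all above MI. The log2 fold change was 3.20 (SE 0.41, adjusted p = 9.92e-05 in edgeR) with sutures and 2.87 (SE 0.40, adjusted p = 0.000203 in edgeR) with microneedles.

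Member 19 showed the narrowest MI range of the genes that rose. It had 0 counts in Sham and 1.42 to 2.49 CPM in MI (median 1.83). It reached 4.68 to 17.1 CPM with the sutured patch (median 7.996; log2 fold change 2.12, SE 0.32, adjusted p = 0.000704 in edgeR). With the microneedle patch it reached 6.64 to 11.2 CPM (median 7.48; log2 fold change 2.14, SE 0.32, adjusted p = 0.00054 in edgeR). No patch library overlapped MI.

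Member 47 had the largest fold changes of the group, and its place among the 54 rested on 1 library. It had 0 counts in Sham and stood at 4.61 CPM in MI replicate 3 but between 0.0716 and 0.896 CPM in the other MI libraries (median of all 6, 0.383). It reached 10.3 to 33.7 CPM with the sutured patch (median 18.4) and 5.37 to 22.6 CPM with the microneedle patch (median 11.1), all above MI replicate 3. The log2 fold change was 4.21 (SE 0.69, adjusted p = 0.00173 in edgeR) with sutures and 3.40 (SE 0.67, adjusted p = 0.00307 in edgeR) with microneedles. Without MI replicate 3 these were 5.70 and 4.89.

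Members 36 and 38 rose in both comparisons and did not overlap MI. Member 36 ran from 0.677 to 2.54 CPM in MI (median 1.06), from 3.30 to 15.6 CPM with sutures (median 9.50) and from 3.74 to 12.2 CPM with microneedles (median 6.01). The fitted log2 fold change was 2.76 (SE 0.43, adjusted p = 0.00104 in edgeR) with sutures and 2.5001 (SE 0.43, adjusted p = 0.00119 in edgeR) with microneedles. Member 38 ran from 0.375 to 2.87 CPM in MI (median 1.27), from 5.49 to 37.2 CPM with sutures (median 8.26), where sutured patch replicate 6 was the high library, and from 2.89 to 13.9 CPM with microneedles (median 7.69). The fitted log2 fold change was 3.26 (SE 0.56, adjusted p = 0.00136 in edgeR) with sutures and 2.63 (SE 0.55, adjusted p = 0.0031 in edgeR) with microneedles.

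Member 39 rose with each patch and was carried in part by 1 library of each group. Sutured patch replicate 3 stood at 31.3 CPM and the other sutured libraries between 2.70 and 9.14 CPM. Microneedle patch replicate 5 stood at 33.7 CPM and the other microneedle libraries between 5.76 and 12.5 CPM, against 0.0752 to 2.25 CPM in MI. The log2 fold change was 2.89 with sutures (SE 0.65, adjusted p = 0.0135 in edgeR) and 3.28 with microneedles (SE 0.66, adjusted p = 0.0024 in edgeR). The call with sutures was lost without sutured patch replicate 3 (2.04, adjusted p = 0.0583).

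Members 21 and 33 also rose with each patch. Member 21 was split in MI, at 3.96 and 4.15 CPM in replicates 1 and 3 and between 0.376 and 1.43 CPM in the rest, and had medians of 9.38 CPM with sutures and 10.2 CPM with microneedles. Its log2 fold changes were 2.58 (adjusted p = 0.0177 in edgeR) and 2.56 (adjusted p = 0.00775). Member 33 had a median of 1.65 CPM in MI, 5.03 CPM with sutures and 4.85 CPM with microneedles, with no overlap. Its log2 fold changes were 1.94 (adjusted p = 0.0134 in edgeR) and 1.65 (adjusted p = 0.0135).

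**Figure D3:**
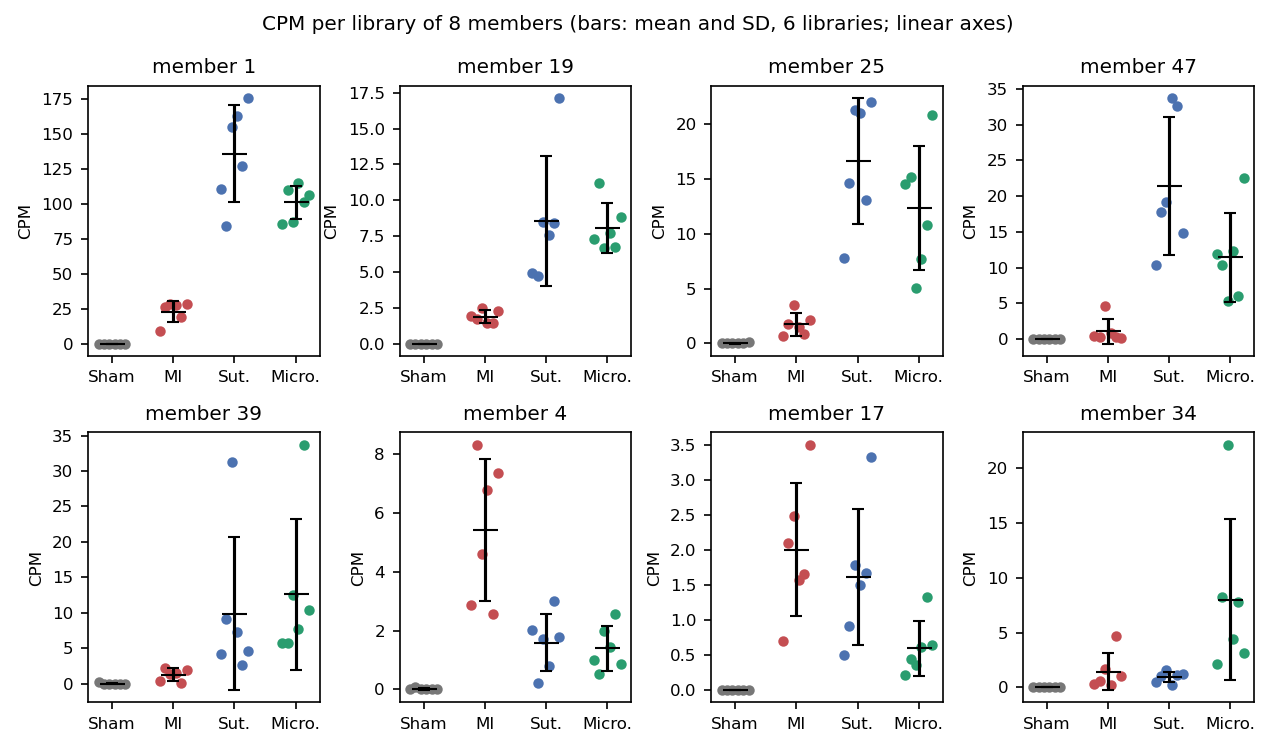
CPM in every library (points) of 8 members in Sham, MI, sutured patch (Sut.) and microneedle patch (Micro.), with the mean and SD of 6 libraries; each panel has its own linear axis. Members 1, 19, 25 and 47 lie higher in all patch libraries than in any MI library, member 4 lies lower on average with either patch (1.60 and 1.40 against 5.42 CPM), and member 34 separates the microneedle from the sutured patch (2.16 to 22.1 against 0.236 to 1.56 CPM).

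With members 34, 54 and 16 the patches gave unlike values. They rose against MI with the microneedle patch and had sutured values that did not pass the test. Member 34 had a log2 fold change of 2.52 (SE 0.68, adjusted p = 0.0201 in edgeR) with microneedles and -0.62 (adjusted p = 0.643) with sutures, and the call was lost without MI replicate 1 (adjusted p = 0.0523) or microneedle patch replicate 3 (0.0592). Member 54 had a log2 fold change of 2.66 (SE 0.60, adjusted p = 0.00699 in edgeR) with microneedles and 0.68 (adjusted p = 0.546) with sutures. Member 16 had a log2 fold change of 1.48 (SE 0.49, adjusted p = 0.0444 in edgeR) with microneedles and 0.51 (adjusted p = 0.582) with sutures. The difference between the patches was itself tested for all 53 members above, where member 16 was not described singly. It did not pass the threshold in edgeR for members 34, 54 and 16 (adjusted p = 0.0621, 0.121 and 0.380).

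Member 31 rose with the sutured patch, where it ran from 1.77 to 10.6 CPM (median 5.21) against 0.373 to 2.72 CPM in MI (median 1.22). The fitted log2 fold change was 2.01 (SE 0.56, adjusted p = 0.0446 in edgeR), and that of the microneedle patch was 0.58 (adjusted p = 0.490). Between the patches its log2 fold change was -1.43 (adjusted p = 0.240 in edgeR).

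Fewer members were called lower than higher. With sutures 4 of 53 tested members were lower, a larger share than the 1.67% of all genes. With microneedles 3 of 53 were lower, a smaller share than the 7.41% of all genes. The choice by MI level favours such falls. Member 4, ENSRNOG00000057724, fell from 2.56 to 8.33 CPM in MI (median 5.70) to between 0.513 and 2.58 CPM with the microneedle patch (median 1.23; log2 fold change -1.95, SE 0.48, adjusted p = 0.00883 in edgeR). With sutures it ran from 0.230 to 3.02 CPM (median 1.75; log2 fold change -1.83, SE 0.47, adjusted p = 0.0277 in edgeR). With either patch the upper libraries overlapped the lowest MI libraries. Member 17, ENSRNOG00000006736, fell with the microneedle patch from a median of 1.88 to 0.529 CPM (log2 fold change -1.72, SE 0.50, adjusted p = 0.0278 in edgeR), and with sutures its median was 1.58 CPM (log2 fold change -0.36, adjusted p = 0.699).

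Member 3 fell with the microneedle patch, from a median of 8.29 to 3.51 CPM (log2 fold change -1.14, SE 0.37, adjusted p = 0.0426 in edgeR). Its sutured value was of like size and just missed the threshold (median 3.55 CPM, log2 fold change -1.27, SE 0.37, adjusted p = 0.0503). With sutures, members 10, 22 and 52 fell from medians of 3.65, 1.88 and 1.06 CPM to 0.640, 0.298 and 0.119 CPM. These members had only 48, 37 and 13 counts over the 6 sutured libraries together. Their log2 fold changes were -2.47, -2.02 and -2.70 (adjusted p = 0.0384, 0.0384 and 0.0491 in edgeR). With microneedles these were -0.95, -0.21 and -1.47 (adjusted p = 0.316, 0.812 and 0.156).

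**Figure D4:**
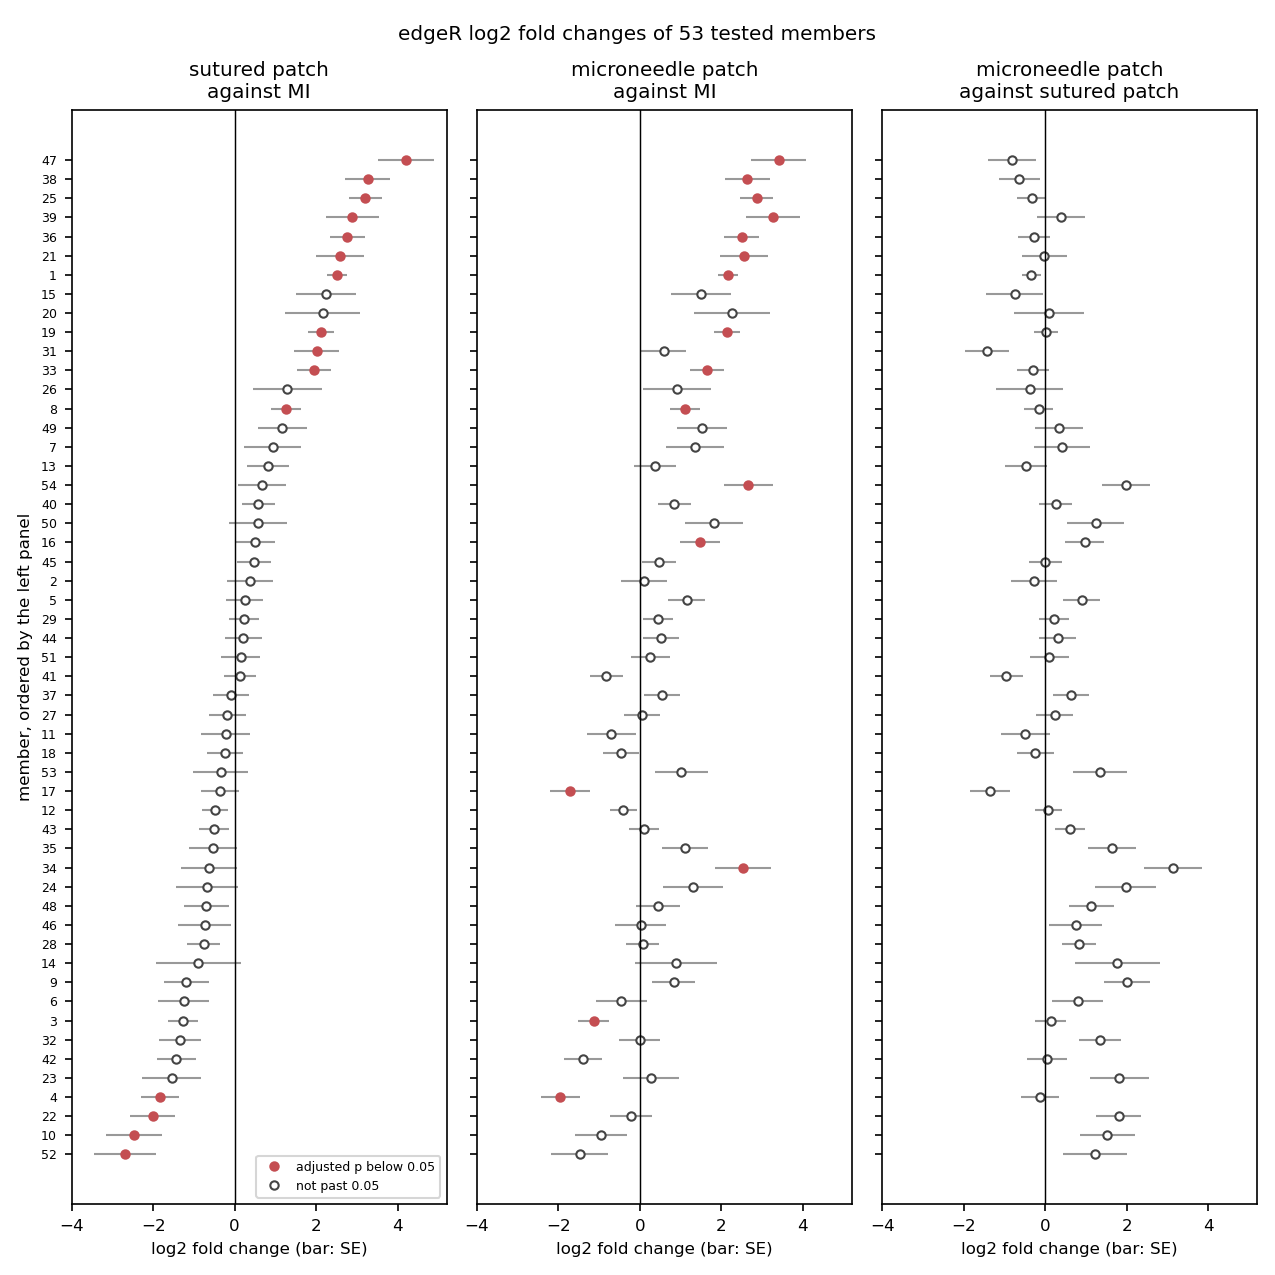
edgeR log2 fold changes (points, bars are SE) of the 53 tested members in 3 comparisons, in the same order of members in each panel; filled points have an adjusted p below 0.05. Filled points number 15 for the sutured patch against MI (11 higher, 4 lower), 16 for the microneedle patch against MI (13 higher, 3 lower) and 0 between the patches; the left and middle panels share the MI libraries.

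Several of these calls stood close to the threshold and ended when 1 library was left out. With the microneedle patch against MI, the call of member 3 ended in 10 of 24 such fits, those without MI replicates 2, 3, 4 and 6, sutured patch replicate 5 or microneedle patch replicates 1, 3, 4, 5 and 6 (adjusted p up to 0.105). That of member 17 ended in 6, without MI replicates 2 and 6 or microneedle patch replicates 1, 2, 3 and 6 (up to 0.0679). That of member 16 ended in 10, without MI replicates 1, 2, 3, 4 and 6, sutured patch replicates 3 and 5 or microneedle patch replicates 3, 4 and 5 (up to 0.105). Member 8, called higher with each patch (log2 fold change 1.10 and adjusted p = 0.0444 with microneedles, 1.26 and 0.0488 with sutures in edgeR), lost its call in 11 and in 15 of 24 such fits (up to 0.0956 and 0.150). With the sutured patch against MI, the call of member 4 ended in 7 fits, without MI replicates 2, 4 and 6 or sutured patch replicates 2, 3, 4 and 6 (up to 0.0749). Those of members 10, 22, 31 and 52 ended in 9, 11, 10 and 16 fits (up to 0.0858, 0.0924, 0.114 and 0.111). The remaining calls, 11 with the microneedle and 8 with the sutured patch, passed the threshold in every one of the 24 fits.

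Other members ranged widely without passing the edgeR test in any of the 3 comparisons. Member 2, second in MI, averaged 17.1 ± 10.4 CPM with sutures and 13.7 ± 11.2 CPM with microneedles (SD, n = 6 each), with log2 fold changes against MI of 0.37 and 0.10. Member 15 reached 46.2 CPM in sutured patch replicate 2 against a sutured median of 3.41 CPM. Member 20 reached 37.6 CPM in sutured patch replicate 2 and 28.3 CPM in microneedle patch replicate 3, against medians of 1.79 and 4.19 CPM. Member 14 was high in 1 library of each infarct group, at 10.4 CPM in MI replicate 4, 6.76 CPM in sutured patch replicate 3 and 16.97 CPM in microneedle patch replicate 4. Members 12, 29, 43 and 44 were more even and had medians between 0.957 and 3.13 CPM in each infarct group.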

How the data were processed

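Per the labels' protocols, Trizol RNA went into NEBNext Ultra libraries. The authors deposited raw read counts, 1 row per Ensembl ID and 1 column per library. Per the submitters' processing notes, HISAT2, featureCounts and rn6 were used. Versions and the strand and multi-mapping settings were not found, so near-identical, overlapping or antisense genes may share reads. Columns were assigned by the code in each title (0 unassigned). The RefSeq table at hand (GRCr8) holds 0 Ensembl IDs; hence the 24 gene lists could not be run, and no promoter or other sequence is shown.

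CPM is count over library total. Counts were tested with edgeR 4.0.16 (R 4.3.3): filterByExpr, TMM, 1 fit of 24 libraries with 4 group means, robust quasi-likelihood F test, Benjamini-Hochberg adjustment over 14540 genes, threshold 0.05. SE is the absolute log2 fold change over the square root of F. DESeq2 1.42.0 and limma 3.58.1 (voom with quality weights per library, written limma-voom) were alternatives. The members, lists and rules were chosen with earlier results of these data known. The rule for named genes allows, without names, 2 IDs each way; none was called between patches, so the IDs with the smallest p for the microneedle patch against MI are printed, and members described singly were picked after their values were seen. MI and patches against Sham were not tested.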

Additional observations from a re-analysis of the deposited data

Results flagged for a closer look

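The 54 members and 2 sums per library gave 168 groups of 6 values, which were searched for a library far from the rest by Dixon's 95% limit. Chance flags about 1 in 20 groups if values are normally distributed, and 28 were found, each the highest library of its group. Low CPM values are bounded below, and their distribution was not tested. The MI values also served to choose the members, which favours genes with a single high MI library. The number of flags therefore cannot be judged against 1 in 20, and the flags are descriptions only.

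In MI, replicate 5 stood apart for member 16 at 5.26 CPM, member 24 at 5.64 CPM, member 34 at 4.66 CPM and member 35 at 4.51 CPM. Replicate 4 stood apart for member 2 at 29.2 CPM and member 14 at 10.4 CPM, and replicate 3 for member 26 at 5.59 CPM and member 47 at 4.61 CPM.

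With the sutured patch, replicate 6 stood apart for member 7 at 22.2 CPM, member 8 at 15.03 CPM, member 19 at 17.1 CPM, member 26 at 14.4 CPM, member 30 at 1.59 CPM and member 38 at 37.2 CPM. Replicate 3 stood apart for member 14 at 6.76 CPM, member 22 at 1.48 CPM, member 39 at 31.3 CPM and member 53 at 2.38 CPM, and replicate 2 for member 15 at 46.2 CPM, member 20 at 37.6 CPM and member 24 at 3.92 CPM.

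With the microneedle patch, replicate 4 stood apart for member 14 at 16.97 CPM and member 27 at 3.99 CPM, and replicate 3 for member 20 at 28.3 CPM and member 34 at 22.1 CPM. Member 22 stood at 2.95 CPM in replicate 1, member 7 at 21.6 CPM in replicate 2 and member 39 at 33.7 CPM in replicate 5.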

How the results depend on the processing

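The 0 members called between the patches became 4 with DESeq2, 7 with limma-voom, 1 with the compared groups alone, 1 with the replicate block and 2 without Sham replicates 4 and 5, while the share of all genes called went from 0.316% to 2.89%, 5.52%, 0.392%, 1.09% and 3.48%. It was 0 to 1 when single libraries were left out (all genes 0.0% to 2.17%). For the microneedle patch against MI, 16 became 29 with limma-voom and 6 with a 2-fold minimum (all genes 14.5%, 35.1% and 1.22%), and 11 to 18 in the leave-one-out fits (all genes 7.08% to 23.9%). For the sutured patch against MI, 15 became 5 with a 2-fold minimum (all genes 4.55% and 0.261%) and 9 to 16 in the leave-one-out fits (all genes 2.13% to 9.72%). It was 9 without MI replicates 2 or 4 or sutured patch replicates 4 or 6 (all genes 2.52%, 2.46%, 2.92% and 2.25%). The all-gene share for sutures was 21.7% with limma-voom, 12.8% without Sham replicates 4 and 5 and 2.32% without the filter on low counts. For microneedles against MI it was 27.8% without Sham replicates 4 and 5 and 7.34% without that filter. The all-gene share that the members are set against thus depended strongly on the fit. No member called against MI lost its call with DESeq2, limma-voom, the compared groups alone or without Sham replicates 4 and 5. Without the filter on low counts, members 3, 8 and 16 with microneedles and members 8, 10, 22, 31 and 52 with sutures lost theirs. Same-numbered libraries did not all deviate together (r from -0.061 to 0.408 over 6 pairs between the patches, 0.049 to 0.145 and -0.021 to 0.374 for each patch against MI). Each library correlated best with its own number in 1, 3 and 3 of 6 cases. The replicate block gave 17 and 15 calls against MI (all genes 18.2% and 5.96%). No member called against MI turned its sign in any of 33 other fits. Over all 53 members, 17 did in at least 1 fit between the patches, 7 for the microneedle and 12 for the sutured patch against MI. Among printed values these were member 19 (log2 fold change -0.13 to 0.34) and member 38 (-0.91 to 0.04) between the patches, member 2 with microneedles (-0.29 to 0.60) and member 34 with sutures (-0.83 to 0.23) against MI. Library totals in place of TMM, chosen after seeing the data, gave 14 and 14 calls against MI and 0 between the patches (all genes 13.2%, 5.28% and 0.371%).

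The number of members was 25 with no Sham count allowed, 17 with at least 2 CPM and 113 with at least 0.5 CPM in MI, 91 with every library thinned to 5443782 counts, 59 to 72 without single Sham libraries and 44 to 58 without single MI libraries.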

Other observations

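The gene with 4 Sham counts and the highest MI level, left out of the 54 by 1 count, stood at 40.3 CPM in MI replicate 1, 113 CPM in replicate 5 and between 255 and 671 CPM in replicates 2, 3, 4 and 6. It averaged 363 ± 265 CPM in MI (SD, n = 6), 855 ± 304 CPM with the sutured patch and 941 ± 315 CPM with the microneedle patch, and its 4 Sham counts came from replicates 1 and 6, with 2 each. Patch libraries ran from 387 to 1498 CPM and overlapped MI.

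The 10 members whose highest MI value was in replicate 5 (members 5, 9, 11, 16, 23, 24, 34, 35, 41 and 48) had a median log2 fold change of 1.39 between the microneedle and the sutured patch, and 8 of them were positive. The 24 members highest in MI replicate 3 had a median of 0.06 there, with 14 positive. These sets were formed after the values were seen and carry no test.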
